A study of Mus musculus with 6 samples.

Results

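Ribosomal protein genes were followed on 6 arrays of mouse testis RNA, as the probes whose array gene name begins with Rpl, Rps or Rplp and a number. Names of the ribosomal S6 kinases (22 probes) and of a pseudogene (1 probe) were left out. The rule gave 143 probes with 84 gene names, of 41174 probes with 27376 gene names on the array, and used no measured value. Of these, 78 probes of 48 genes belonged to the large subunit, 58 probes of 32 genes to the small subunit and 5 probes of 3 genes to the stalk. The last 2 probes detect Rps19bp1, a binding partner of a small-subunit protein, which the rule takes in by its name although it is not a ribosomal protein. The small-subunit names also include Rps4y2, which RefSeq lists as Rps4l, a transcribed pseudogene.

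The study compared testes of 3 Prss54KO males with testes of 3 wild-type (WT) males, to learn what Prss54, a serine protease family gene, does. All 6 mice were 6 to 8 weeks old, had a mixed 129Sv and C57BL/6 background and gave 1 array each, from 0.5 ug of total RNA labelled with Cy3. The labels do not say how the Prss54 allele was made. The Prss54 probe gave processed signals of 7381, 9466 and 8416 in Prss54KO testes, against 22677, 24152 and 26120 in WT testes, a log2 difference of -1.56 (SE 0.10, limma's adjusted p = 0.116). All Prss54KO arrays lay below all WT arrays for it, with signal left in the Prss54KO testes, and whether the probe lies in the altered part of the gene is not known here.

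Median signals of the arrays ran from 203.1 to 219.7 intensity units, 66.2% to 74.8% of gene spots on an array were well above background, and 0 were saturated. The arrays stood on 3 slides: Prss54KO replicate 3 on slide 1, Prss54KO replicates 1 and 2 with WT replicate 3 on slide 2, and WT replicates 1 and 2 on slide 3. The tissue label was checked with marker genes. The protamine gene Prm1, a marker of spermatids, averaged 472227 on its brightest probe in Prss54KO and 467447 in WT, and Wt1, a Sertoli cell gene, averaged 2791 in Prss54KO and 2787 in WT. The epididymal genes Lcn5, Lcn8, Adam7 and Crisp1 were well above background on 0 arrays. Other epididymal genes were above it on all 6: Rnase10 averaged 458.1 in Prss54KO and 412.6 in WT, Defb41 435.9 in Prss54KO and 370.5 in WT, and Lcn9, on 1 of its 2 probes, 91.4 in Prss54KO and 65.3 in WT.

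Ribosomal proteins coat the ribosomal RNA of the large and the small subunit, and most are needed in one copy per ribosome, so their genes are usually expressed together and strongly in every tissue. Their messages typically start with a run of pyrimidines, the 5′ terminal oligopyrimidine or TOP sequence, through which the growth kinase mTOR controls how much they are translated. Several of the genes lie on the X chromosome, which is silenced in meiotic male germ cells. The mouse carries autosomal copies of some of them, of which Rpl39l and Rpl10l are known from male germ cells. Rpl10l was not analysed here.

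The pairs of a copied gene and its parent depend on which message a 60-base probe can bind, so the probe sequences of such pairs are given as the array's design holds them, in the sense direction. Both Rpl10 probes follow, with the 29 bases they share in capitals. Rpl10 encodes the X-linked large-subunit protein whose autosomal copy is Rpl10l.
Rpl10 A_51_P495895, chrX:71518098-71518157, plus strand: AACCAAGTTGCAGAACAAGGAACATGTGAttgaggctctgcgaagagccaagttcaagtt
Rpl10 A_52_P171216, with no position in the files: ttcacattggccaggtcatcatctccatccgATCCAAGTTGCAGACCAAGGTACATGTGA

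Within those 29 bases the probes differ at 3 positions, A2T, A15C and A21T, counted from the 5′ end of A_51_P495895, with its base first. The files place A_51_P495895 on the X chromosome and give A_52_P171216 no place in the mm9 genome, so the messages that the second probe binds cannot be told from its position. The probe sequences for 3 further pairs of copy and parent follow, all in mm9 coordinates and in lower case throughout because no stretch is singled out.
Rpl36al A_51_P209444, chr12:70284093-70284152, minus strand: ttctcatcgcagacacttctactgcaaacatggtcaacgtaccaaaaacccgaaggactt
Rpl36a A_52_P481880, chrX:131122046-131122105, plus strand: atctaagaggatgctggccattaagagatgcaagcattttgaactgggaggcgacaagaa
Rpl22l1 A_51_P218814, chr3:28706197-28706256, plus strand: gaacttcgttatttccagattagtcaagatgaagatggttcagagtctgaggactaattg
Rpl22 A_51_P387878, chr4:151704158-151704217, plus strand: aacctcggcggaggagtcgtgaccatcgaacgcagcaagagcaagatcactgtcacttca
Rpl3l A_51_P243123, chr17:24872413-24872681, plus strand: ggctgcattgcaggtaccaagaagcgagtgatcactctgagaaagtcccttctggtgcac
Rpl3 A_51_P519024, chr15:79910252-79910826, minus strand: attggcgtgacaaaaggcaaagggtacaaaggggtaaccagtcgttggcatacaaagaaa

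The last pair spans more genome than its 60 bases, so each of those probes crosses an intron of the gene, as 40 of the 143 probes do by their positions. Of all 143 probes, 139 had a position in the files. The Rps27 probe lies on another chromosome than its RefSeq gene, on 9 in place of 3, and so does the Rps29 probe, on 2 in place of 12. The Rps27 probe also lists an accession of Rps27rt, an intronless copy of Rps27. In all, 14 probes list accessions of a further gene or pseudogene, among them probes of Rpl7, Rpl22l1, Rpl26, Rpl30 and Rpl34, and their signal may hold both messages.

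Ribosomal protein messages were detected by nearly all of their probes. Of the 143 probes, 134 (93.7%) were well above background on all 6 arrays, against 65.0% of all probes on the array, and all 84 genes had at least 1 such probe. Among the 137 probes tested, the mean WT signal ran from 29.1 to 230783 intensity units, with a median of 39413 and quartiles of 6664 and 87265. The median over all 28913 tested probes was 726.0. In WT testes, 100 of the 137 probes (73.0%) reached 10000 units, against 12.1% of all tested probes. Signals of different probes depend on their sequence, so the genes were not ranked among each other.

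The filter on dim probes asked for a signal well above background on at least 3 arrays, and 6 probes missed it, each of a gene that kept another tested probe. Probes of Rpl37, Rps2 and Rps19 among them were above background on 0 arrays. The Rps6 probe gave 30.5, 30.9 and 36.2 in Prss54KO testes, against 31.8, 38.3 and 24.5 in WT testes, and was above background on 2 arrays. These probes hold a bound and no measured level, and the messages of their genes were seen through the other probes.

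Prss54KO testes held ribosomal protein messages at close to the WT level, and no probe separated the genotypes by the test. With limma over all 28913 probes, 0 of 137 ribosomal protein probes had an adjusted p under 0.05, against 0.0% of all probes, and the smallest adjusted p among them was 0.9998. At an unadjusted p under 0.05 there were also 0 of 137, where 3.21% of all probes (929) passed, and 1.06% of the 12857 probes with a WT signal of 1000 units or more. The smallest unadjusted p was 0.0854, for a probe of Rpl7l1. The genotypes did not overlap for 7 of the 137 probes (5.11%), 3 higher and 4 lower in Prss54KO, against 7.89% of all probes.

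The size of the differences was small as well as their support. The median log2 difference, Prss54KO minus WT, was 0.012 over the 137 probes and 0.007 over all probes, with an SD of 0.084 over the ribosomal protein probes and 0.156 over all. Bright probes vary less: at 1000 units or more in WT, the SD was 0.066 over 118 ribosomal protein probes and 0.086 over all 12857 probes. Single values ran from -0.33, a probe of Rpl21, to 0.46, a probe of Rpl7a. The 95% interval of the difference lay inside a 1.2-fold change either way for 111 of 137 probes (81.0%), against 48.1% of all probes. It lay inside 1.5-fold for 129 (94.2%, against 88.4% of all probes) and inside 2-fold for 136 (99.3%, against 96.8%). Among probes of 1000 units or more in WT, it lay inside 1.2-fold for 88.1% of ribosomal protein probes and 68.4% of all probes. At 1.5-fold those shares were both 97.5%. These 95% intervals were taken 1 probe at a time, so they do not bound the 111 probes jointly. The fit had no term for slide, and slides 1 and 3 each held a single genotype. A change shared by most messages would be removed by the scaling. The intervals of the other 26 probes reached past 1.2-fold.

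Above 0 were 83 probes and below 0 were 54 (60.6% above, against 53.4% of all probes). That share of the ribosomal protein probes was 41.6% with median scaling, which moved the median of all probes to -0.012, 50.4% with quantile scaling and 49.6% in the authors' deposited table. On slide 2, which alone held both genotypes, the median difference was 0.004. Bulk tissue RNA does not tell a lower share of a cell type from less RNA per cell.

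By array, the median ribosomal protein probe stood at 0.008, 0.033 and -0.010 in Prss54KO replicates 1 to 3, against 0.005, -0.030 and 0.019 in WT replicates 1 to 3, relative to the WT mean. The spread of those medians, an SD of 0.022 in Prss54KO and 0.025 in WT, was wider than the difference between genotypes. Single arrays stood out more than genotypes did: Prss54KO replicate 2 was the highest array for 42 of the 137 probes (30.7%), against 15.8% of all probes, and WT replicate 2 was the lowest for 51 (37.2%), against 15.3% of all. The array-by-array plot shows both shifts. Replicates were tight, with a median within-group SD on the log2 scale of 0.049 in Prss54KO and 0.058 in WT, against 0.099 in Prss54KO and 0.090 in WT over all tested probes. At 1000 units or more in WT, the median SD pooled over genotypes was 0.054 for ribosomal protein probes and 0.077 for all probes.

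**Figure D1:**
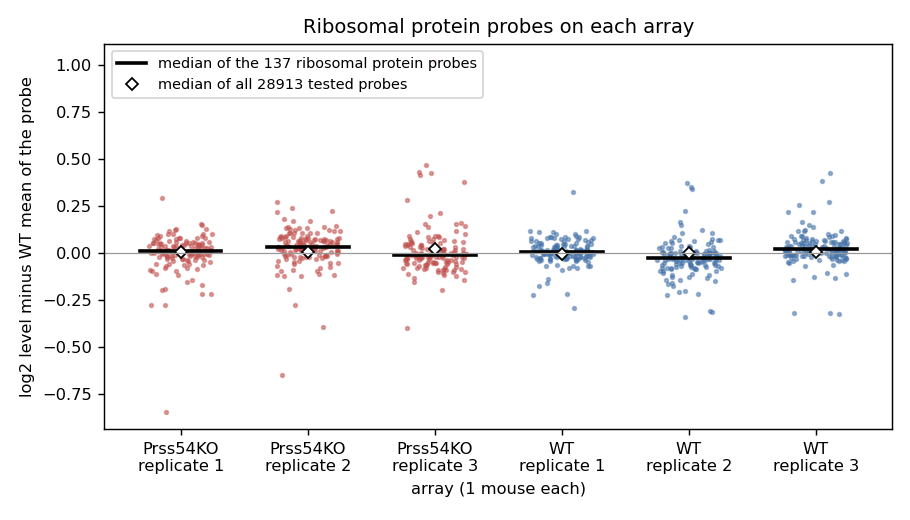
Each point is 1 of the 137 tested ribosomal protein probes on 1 array, as its log2 level minus the probe's WT mean (vertical axis), with the 3 Prss54KO arrays in red left of the 3 WT arrays in blue. Black bars are the medians of these probes, from -0.030 (WT replicate 2) to 0.033 (Prss54KO replicate 2), and open diamonds are the medians of all 28913 tested probes.

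The subunits gave similar medians. The large subunit had a median log2 difference of 0.005 over 77 tested probes (43 above 0, 34 below), the small subunit 0.018 over 53 (35 above, 18 below) and the stalk 0.013 over 5 (4 above, 1 below). The interquartile range over large-subunit probes was -0.018 to 0.037, and over small-subunit probes -0.013 to 0.044. The 2 probes of Rps19bp1 gave -0.05 (SE 0.07) and 0.02 (SE 0.08). X-linked genes of the set, Rpl10, Rpl36a, Rpl39 and Rps4x, had a median of -0.006 over 8 probes, and autosomal ones 0.012 over 129. Probes were assigned by gene name, and the 8 include a probe each of Rpl10 and Rps4x without a position in the files.

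**Figure D2:**
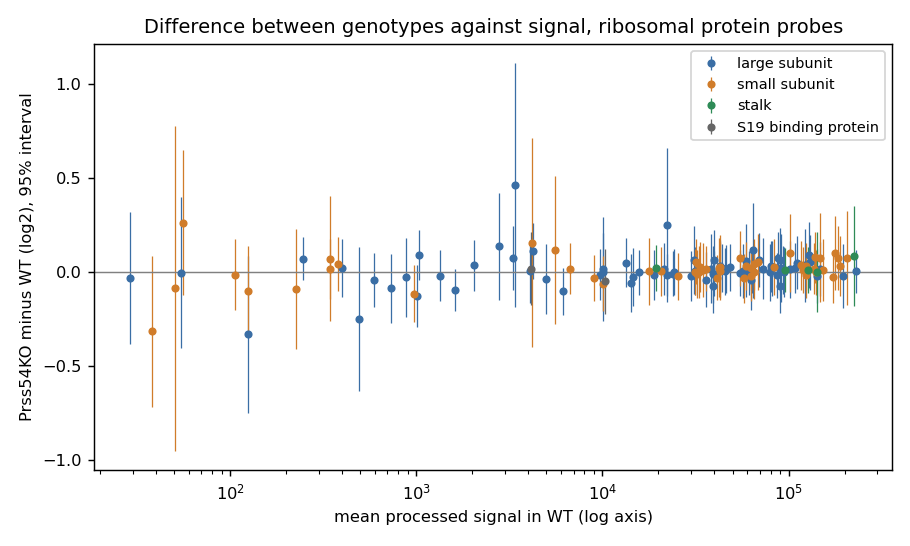
The log2 difference, Prss54KO minus WT, of the 137 tested probes (points, with limma's 95% intervals as bars) is plotted against their mean WT signal on a log axis, coloured by subunit. Most probes of 1000 units or more lie close to 0 with short bars, and 3 of the 118 lie outside a 1.1-fold change, a probe each of Rpl7a (0.46), Rpl30 (0.25) and Rps21 (0.16). Intervals lay inside 1.2-fold for 104 of the 118 probes of 1000 units or more (88.1%) and for 7 of the 19 dimmer ones. Of all 12857 tested probes of 1000 units or more, 68.4% had intervals inside 1.2-fold and 851 lay outside a 1.1-fold change.

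Of the germ-cell and other duplicates, Rpl39l was the gene with known expression in male germ cells that the array measured. Its brighter probe, A_52_P386544, had signals of 86372, 83448 and 80696 in Prss54KO testes, against 79822, 79339 and 80926 in WT testes. Prss54KO replicates 1 and 2 stood above the WT arrays and replicate 3 fell among them. The difference was 0.03 (SE 0.06, 95% interval -0.10 to 0.17).
The other probe, A_51_P172005, had 2201, 2106 and 2105 in Prss54KO, against 1972, 2072 and 2081 in WT, a difference of 0.04 (SE 0.06) with overlapping normalized levels. Both probes lie on chromosome 16 and gave nearly the same small difference, although their signals were far apart.

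Rpl39, the X-linked parent of Rpl39l and a small protein of the large subunit's exit tunnel, had 10231, 9865 and 10738 in Prss54KO, against 10643, 8682 and 10995 in WT. The WT arrays enclosed all Prss54KO arrays, and the difference was 0.00 (SE 0.09, 95% interval -0.21 to 0.21). WT replicate 2 was the low array, and without it the difference was -0.08.

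Rps4x encodes an X-linked small-subunit protein. The array names its autosomal copy on chromosome 6 Rps4y2, and RefSeq lists the same accession as Rps4l, a transcribed pseudogene. The Rps4y2 probe is printed on the array 10 times. Its mean signals were 32790, 33994 and 34211 in Prss54KO testes, against 31527, 30972 and 32759 in WT testes. The normalized levels of the genotypes did not overlap, and the difference was 0.06 (SE 0.05, 95% interval -0.06 to 0.17), with an unadjusted limma p of 0.303. The coefficient of variation of its spots on an array was 1.06% to 3.72%, over 8 to 10 spots after outliers were dropped.
The Rps4x probe A_51_P267995 had 9859, 9378 and 10348 in Prss54KO, against 9913, 9421 and 10960 in WT, a difference of -0.06 (SE 0.06). A dim Rps4x probe with no position in the files, A_52_P780667, had 69.2, 60.7 and 73.8 in Prss54KO, against 46.7, 67.7 and 53.2 in WT, a difference of 0.26 (SE 0.16). It opposed the bright probe in sign, and without WT replicate 2 it was 0.43.

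Rpl36al is an autosomal copy of the X-linked Rpl36a and is widely expressed. Its probe had 24609, 23928 and 24458 in Prss54KO, against 23890, 23658 and 24349 in WT, a difference of -0.01 (SE 0.05). The parent's brightest probe, A_52_P481880, had 50922, 49983 and 49541 in Prss54KO, against 49228, 45867 and 49905 in WT, with a difference of 0.02 (SE 0.05). Copy and parent both differed by less than their errors.
Rpl36a had 2 more probes, A_51_P283920 and A_52_P197926, which share 40 identical bases. The first had 5668, 5841 and 6042 in Prss54KO, against 6164, 5993 and 6283 in WT, a difference of -0.10 (SE 0.05), with normalized Prss54KO levels below all WT levels. The second had 5068, 4817 and 4873 in Prss54KO, against 4429, 5153 and 5294 in WT, a difference of -0.04 (SE 0.08), and overlapped. The overlap in sequence makes these probes a repeated look at 1 stretch and no independent pair.

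**Figure D3:**
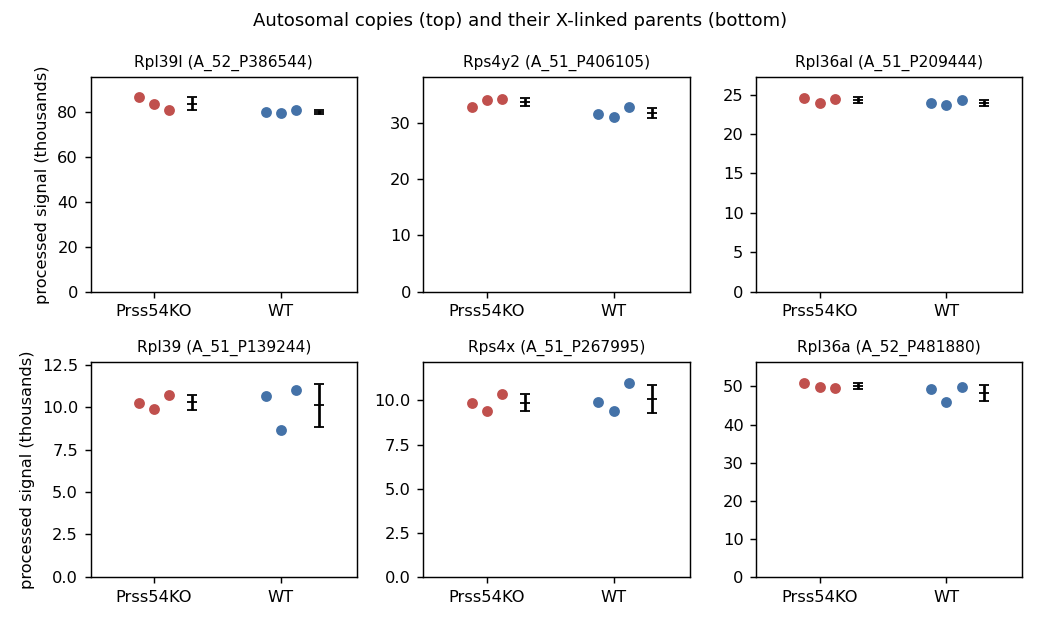
Processed signal divided by 1000 (vertical axes, starting at 0 and set separately for each probe) of 3 autosomal copies (top) and their X-linked parents (bottom), with the Prss54KO mice in red left of the WT mice in blue; black bars are the mean and SD of 3 arrays. The group means are 33665 in Prss54KO and 31753 in WT for Rps4y2, and for Rpl39l they are 83505 in Prss54KO and 80029 in WT.

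The array gives both overlapping probes printed above the name Rpl10, the parent of the germ-cell gene Rpl10l. Which messages A_52_P171216 binds is not known here. A_51_P495895 had 9997, 9310 and 11813 in Prss54KO, against 9626, 8891 and 11716 in WT, a difference of 0.02 (SE 0.11). A_52_P171216 had 19131, 18053 and 20045 in Prss54KO, against 18602, 18349 and 19634 in WT, a difference of -0.01 (SE 0.05). The genotypes overlapped on both.

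Duplicates known from tissues other than the germ line also had 0 probes at an unadjusted p under 0.05. Rpl3l, which replaces Rpl3 in skeletal and cardiac muscle, was dim, at 51.9, 56.6 and 54.5 in Prss54KO, against 47.1, 44.3 and 72.6 in WT, though well above background on all 6 arrays. Its difference was 0.00 (SE 0.17), and WT replicate 3 set it: without that array it was 0.19, and on slide 2, where it is the only WT array, -0.38. Rpl3 itself had 22584, 22245 and 22341 in Prss54KO, against 21856, 21393 and 23270 in WT, a difference of -0.01 (SE 0.05).

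Rpl22l1 is the near copy of Rpl22 that cells raise when Rpl22 is lost. Its brighter probe had 45447, 45946 and 48752 in Prss54KO, against 44540, 44101 and 48224 in WT (difference 0.01, SE 0.05). The dimmer probe, A_52_P65897, had 1113, 1079 and 1181 in Prss54KO, against 1007, 999.6 and 1097 in WT, a difference of 0.09 (SE 0.05, 95% interval -0.04 to 0.22). Its normalized levels were higher in all Prss54KO arrays than in all WT arrays, while those of the brighter probe overlapped.
Rpl22 had 24603, 25125 and 24503 in Prss54KO, against 23986, 22984 and 25874 in WT on its brighter probe, and both of its probes differed by less than 0.02 with overlap.

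Rpl7l1 is a paralogue of the large-subunit gene Rpl7. The A_51_P110147 probe of Rpl7l1 had 1535, 1520 and 1548 in Prss54KO, against 1583, 1543 and 1698 in WT, a difference of -0.10 (SE 0.05, 95% interval -0.21 to 0.02). This was the smallest p of the whole set, with all normalized Prss54KO levels below all WT levels. Its other probe had 396.3, 402.3 and 443.3 in Prss54KO, against 387.4, 376.8 and 434.5 in WT, a difference of 0.02 (SE 0.06), so the probes of the gene did not share a direction.
The 3 probes of Rpl7 gave -0.03 (SE 0.06), 0.00 (SE 0.05) and 0.00 (SE 0.06), all with overlap.

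Rps27l is a p53-responsive copy of the small-subunit gene Rps27. It had 32830, 31816 and 31127 in Prss54KO, against 30974, 30282 and 32672 in WT, a difference of 0.00 (SE 0.05). The Rps27 probe, which also lists Rps27rt, had 126702, 128544 and 121855 in Prss54KO, against 122544, 120538 and 129948 in WT, a difference of -0.01 (SE 0.05). Rpl26 had 110909, 113177 and 112161 in Prss54KO, against 103408, 103185 and 118143 in WT, a difference of 0.02 (SE 0.05). WT replicate 3 was the highest array and the other WT arrays the lowest for Rpl26, so the WT spread enclosed the Prss54KO arrays.

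Over the 10 tested probes of the 7 duplicated genes, 6 were above 0 and 4 below, with a median of 0.014, and over the 16 probes of the 9 parents 5 were above and 11 below, with a median of -0.009. The genotypes did not overlap for 3 of the 10 probes (30.0%) and 1 of the 16 (6.25%), against 7.89% of all probes. None of the 26 had an unadjusted p under 0.05. Probes were counted by the array's gene name, so the parents include the Rpl10 probe A_52_P171216, whose target is not known here. These lists were drawn up by function, not from the values, but with earlier results of these arrays known.

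**Figure D4:**
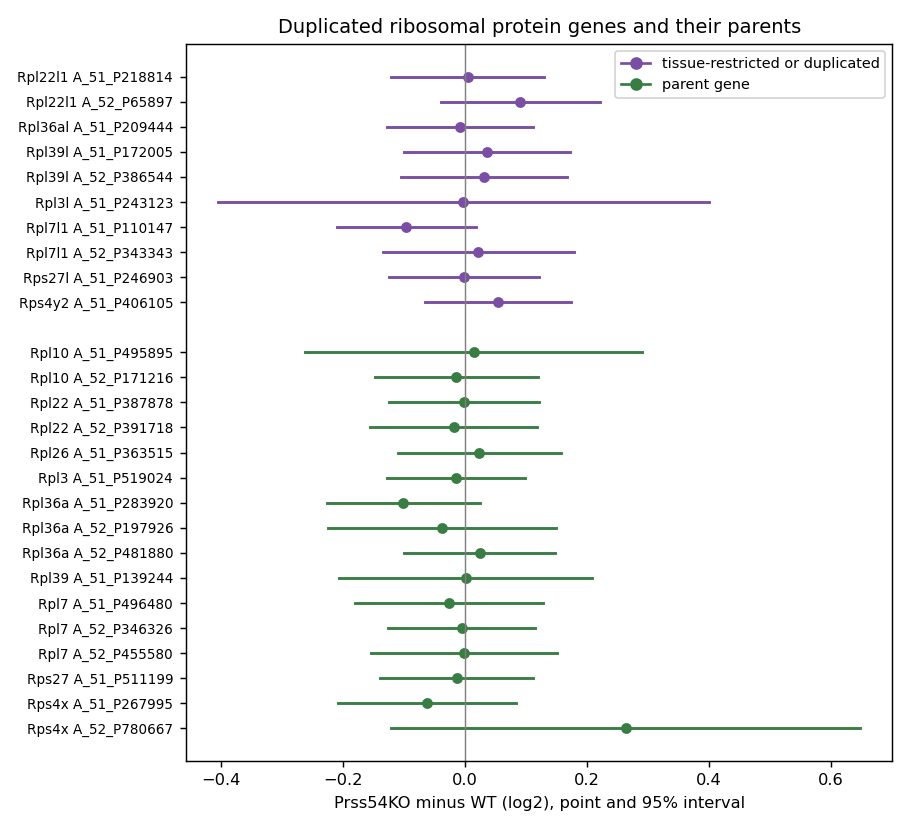
Log2 difference, Prss54KO minus WT (points), with limma's 95% interval (bars), for the 10 probes of tissue-restricted or duplicated ribosomal protein genes (purple) and the 16 probes of their parents (green). All 26 intervals include 0, and the widest belong to the dim probes of Rpl3l and Rps4x.

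Several ribosomal protein genes serve as loading references in other assays, so their stability in testis is of practical use. Rplp0, a stalk protein, had a probe printed 10 times, with mean signals of 20626, 20147 and 19729 in Prss54KO, against 19195, 18770 and 20470 in WT. The difference was 0.02 (SE 0.05, 95% interval -0.10 to 0.14), and the coefficient of variation of its spots was 1.89% to 3.30%. A second Rplp0 probe, A_52_P586574, gave 0.01 (SE 0.05). The brightest one, A_51_P134602, had 225493, 241788 and 254359 in Prss54KO, against 232524, 184175 and 255067 in WT, a difference of 0.09 (SE 0.11). WT replicate 2 was low on it, and without that array the difference was -0.03.

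Rpl13a, a large-subunit protein, had 41328, 40696 and 37642 in Prss54KO, against 39781, 37222 and 41234 in WT, a difference of -0.01 (SE 0.06). Rpl32, also of the large subunit, had 151386, 151771 and 152510 in Prss54KO, against 141807, 137050 and 163206 in WT (0.02, SE 0.06). Rpl19 gave -0.01 (SE 0.05) and 0.02 (SE 0.06) on its probes. For these genes the intervals all lay inside 1.2-fold.

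Among small-subunit references, Rps18 had 204880, 195343 and 191605 in Prss54KO, against 172840, 172411 and 207233 in WT on its brightest probe, a difference of 0.07 (SE 0.07). Another bright probe gave 0.05 (SE 0.06). The remaining Rps18 probe was dim, at 28.2, 56.4 and 68.4 in Prss54KO, against 47.5, 62.3 and 41.3 in WT, with a difference of -0.09 (SE 0.36). Prss54KO replicate 1 was the 1 array on which it missed the background mark, and without that array the difference was 0.30.
Rps29 had 199199, 194184 and 184565 in Prss54KO, against 184940, 154303 and 191153 in WT (0.10, SE 0.08), with WT replicate 2 lowest and a difference of 0.03 without it. Of the 11 probes of the 6 reference genes, 8 were above 0 and 3 below, with a median of 0.019, and 0 had an unadjusted p under 0.05.

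The members nearest to a difference were taken as the 8 probes per direction with the smallest p, a choice that uses the contrast itself, so their values are given as a description. On the higher side, the Rpl21 probe A_52_P258959 had 4723, 4879 and 4486 in Prss54KO, against 4103, 4273 and 4385 in WT, a difference of 0.11 (SE 0.06). Rpl11, which can hold Mdm2 when ribosome assembly is disturbed, had a dim probe at 262.0, 264.2 and 263.5 in Prss54KO, against 241.1, 242.3 and 252.6 in WT, a difference of 0.07 (SE 0.05) without overlap. The bright Rpl11 probe gave 0.05 (SE 0.06) with overlap. Rpl30 had 23043, 26563 and 30221 in Prss54KO, against 22142, 17019 and 27405 in WT on probe A_51_P268914, a difference of 0.25 (SE 0.17). Its arrays spread widely in both genotypes, and the difference was 0.10 without WT replicate 2 and -0.11 on slide 2 alone. The brighter Rpl30 probe gave 0.07 (SE 0.06) with overlap.
Rps14 differed by 0.08 (SE 0.06) and Rpl13 by 0.08 (SE 0.06), both with overlap. The probes of Rpl7a, Rpl22l1 and Rps4x complete the 8.

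On the lower side, Rpl23, whose protein also binds Mdm2, had 889.5, 939.4 and 1014 in Prss54KO, against 1027, 1005 and 1006 in WT on probe A_51_P108190, a difference of -0.13 (SE 0.07). Its brighter probe gave 0.00. Rpl14 had 411.4, 407.2 and 438.2 in Prss54KO, against 603.2, 472.2 and 408.0 in WT, a difference of -0.25 (SE 0.16). WT replicate 3 lay with the Prss54KO arrays, and on slide 2 alone the difference was 0.04. Rpl23a had 89806, 89344 and 83514 in Prss54KO, against 86921, 89058 and 95258 in WT on probe A_51_P127516, a difference of -0.08 (SE 0.06). The other Rpl23a probe gave 0.02 (SE 0.05). The remaining lower probes belonged to Rpl7l1, Rpl36a, Rpl21 and, with a pair, Rps24.
Among the 7 probes without overlap there was also a probe of Rpl29, a large-subunit gene, named because of that value. It had 38701, 38394 and 36922 in Prss54KO, against 37802, 39972 and 39613 in WT, a difference of -0.07 (SE 0.06) on the normalized scale. The other 3 Rpl29 probes overlapped.

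Probes of the same gene mostly gave the same answer. For the 42 genes with several tested probes, the median range of the log2 difference within a gene was 0.07, against 0.08 over 6645 such genes on the array, and it was under 0.1 for 29 of them (69.0%, against 57.5%). It was over 0.2 for 5 genes. The 4 genes with the widest range were Rpl7a, Rpl21, Rps24 and Rps4x, and in each the outlying value came from a probe much dimmer than its partner.

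Rpl7a, a large-subunit gene, showed this most. Its probe A_52_P548790 had 3713, 3971 and 6931 in Prss54KO, against 3429, 2592 and 4135 in WT, a difference of 0.46 (SE 0.27). Prss54KO replicate 3 was high, and without that array the difference was 0.18. On slide 2 alone it was -0.07. The brighter probes had 145246, 142305 and 140681 in Prss54KO, against 148088, 132427 and 145487 in WT for A_52_P436206 (-0.02, SE 0.06), and A_51_P359862 gave -0.02 (SE 0.05).
The dim Rpl21 probe A_52_P653937 had 109.9, 95.2 and 96.3 in Prss54KO, against 119.7, 153.0 and 103.3 in WT, a difference of -0.33 (SE 0.17), where the other Rpl21 probe was above 0. WT replicate 2 was high on the dim probe, and the difference without it was -0.16. On slide 2 alone it was 0.02.
Rps24, a small-subunit gene with alternative 3′ exons, had 111377, 115688 and 107008 in Prss54KO, against 105721, 88260 and 112717 in WT on its bright probe, a difference of 0.10 (SE 0.09). Its probe A_52_P100002 had 868.4, 950.7 and 931.5 in Prss54KO, against 950.4, 980.8 and 984.0 in WT (-0.11, SE 0.06), without overlap on the normalized scale. Its dimmest probe, A_52_P537084, had 31.9, 24.4 and 38.6 in Prss54KO, against 37.0, 39.9 and 36.7 in WT (-0.31, SE 0.17). It was above background on 4 arrays, 1 Prss54KO and 3 WT. It thus passed the filter only through WT, where it was higher, so its direction is partly set by the filter. The difference was -0.15 without Prss54KO replicate 2 and -0.47 without Prss54KO replicate 3. The bright probe ran above 0 and A_52_P100002 below, and the direction of the dimmest probe is not counted beside them. Which messages the dim probes bind was not tested.

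Genes around the ribosome were read from lists drawn up by function. Rack1, named Gnb2l1 on the array, sits on the small subunit as a scaffold for signalling proteins, and its probes gave -0.08 (SE 0.05) and 0.05 (SE 0.08). It belonged to 7 tested probes of ribosomal proteins that go by other names, with a median of 0.016 and 0 at an unadjusted p under 0.05.
Mitochondrial ribosomal proteins, which translate the messages of mitochondrial DNA, had a median of -0.008 over 120 tested probes, 53 above 0 and 67 below. In that list 1 probe had an unadjusted p under 0.05 (0.833%, against 3.21% of all probes): Mrpl35, lower, at 31.1, 31.8 and 32.7 in Prss54KO, against 33.0, 38.3 and 40.2 in WT, on a probe above background on 3 arrays. Mrps2 had 1537, 1548 and 1430 in Prss54KO, against 1336, 1203 and 1477 in WT, a difference of 0.14 (SE 0.07).

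Ribosome assembly factors had a median of -0.021 over 104 probes, 41 above 0 and 63 below, with 1 higher and 3 lower at an unadjusted p under 0.05 (3.85%, against 3.21% of all probes). Single differences ran from -0.98 to 2.02, so the largest one was higher in Prss54KO. It belonged to a probe that is not among the 2 with the smallest p. Rrs1, a factor of large-subunit assembly, had 1526, 1459 and 1556 in Prss54KO, against 1875, 1802 and 1769 in WT, a difference of -0.29 (SE 0.06) without overlap. Its unadjusted p was 0.00344 and limma's adjusted p 0.9998. Nip7, a further assembly factor, was dim on the probe with the next smallest p, at 27.7, 30.2 and 37.0 in Prss54KO, against 47.9, 49.2 and 94.1 in WT (-0.98, SE 0.26). WT replicate 3 was the high array for Nip7, and the probe was above background on 4 arrays.

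RNA polymerase I and its factors, which make the ribosomal RNA precursor, had a median of -0.008 over 34 probes, with 0 at an unadjusted p under 0.05. The polymerase subunit Polr1b had 206.9, 240.5 and 251.8 in Prss54KO, against 394.7, 240.3 and 245.4 in WT, where WT replicate 1 was the high array. The factor Taf1d differed by 0.10 (SE 0.07).

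Translation initiation factors had a median of 0.010 over 88 probes and elongation and termination factors 0.009 over 37, each with 0 at an unadjusted p under 0.05. The elongation factor Eef2, which moves the ribosome along the message, had 2460, 2312 and 2281 in Prss54KO, against 1964, 1966 and 2310 in WT (0.15, SE 0.07). Its kinase Eef2k gave 0.22 (SE 0.10), and the initiation factors Eif4g2 and Eif3b gave 0.13 (SE 0.06) and 0.11 (SE 0.05). The other TOP messages, those of genes outside the ribosome that start with the same pyrimidine run, had a median of 0.011 over 36 probes.
The ribosomal S6 kinases, whose names the rule left out, had a median of 0.014 over 17 probes and 1 lower at an unadjusted p under 0.05 (5.88%, against 3.21% of all probes), Rps6ka6 (-0.16, SE 0.06). With limma 0 probes of any of these lists had an adjusted p under 0.05.

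**Figure D5:**
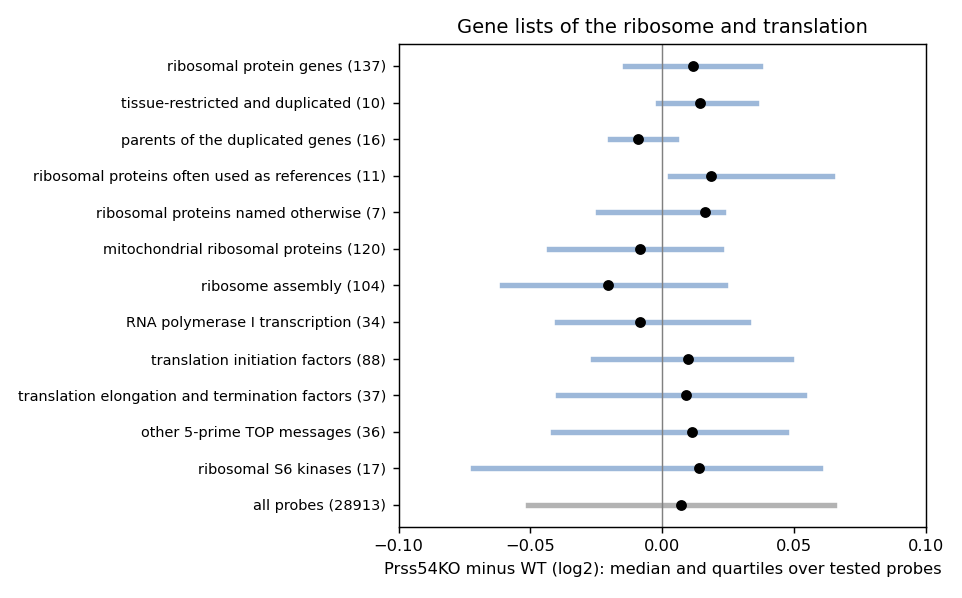
Median (black points) and quartiles (bars) of the log2 difference, Prss54KO minus WT, over the tested probes of each list, with the number of probes in brackets and all 28913 tested probes in grey at the bottom. The medians lie between -0.021 for ribosome assembly and 0.019 for the reference genes.

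Lists of cell type markers were measured beside the ribosomal protein probes, and 0 of their probes had an adjusted p under 0.05 with limma. Fibroblast and matrix genes had a median of -0.14 over 17 tested probes, 3 above 0 and 14 below, with 3 lower at an unadjusted p under 0.05 (17.6%, against 3.21% of all probes). Red blood cell genes had a median of -0.44 over 8 probes, 0 of them at an unadjusted p under 0.05, with array medians of -0.50, -0.25 and -0.60 in Prss54KO, against 0.77, -0.78 and 0.06 in WT. Spermatid markers had a median of 0.013 over 21 probes, spermatocyte markers 0.019 over 21, spermatogonial markers -0.005 over 12 and Sertoli markers 0.033 over 16. Leydig markers stood at -0.06 over 12 probes, peritubular muscle at -0.03 over 12, endothelium at -0.04 over 8, macrophages at -0.05 over 15 and epididymal epithelium at 0.21 over 3. Apart from the fibroblast list, 3 marker probes had an unadjusted p under 0.05, where 3.21% of all probes passed. Higher in Prss54KO were Gfra1, 1 of 12 spermatogonial probes, and Defb41, 1 of 3 epididymal probes. Cdh5, 1 of 8 endothelial probes, was lower. The spermatocyte, spermatid, Sertoli, Leydig, peritubular muscle, macrophage and red blood cell lists had 0. The part of the marker genes in the ribosomal protein values was not tested.

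What the genes share in sequence was read from RefSeq promoters of the GRCm38.p6 build, each 250 bases before to 50 bases after the annotated start. Of 84 gene symbols, 63 matched. Some of these genes had several annotated starts. For them a run at any start counted, and the highest CG count was kept. The feature searched was a run of at least 8 bases that are each C or T, on the sense strand, reaching into the window from 20 bases before to 20 bases after the start. It was present for 33 of 63 ribosomal protein genes (52.4%), 26.1% of 69 mitochondrial ribosomal protein genes, 23.7% of 17492 protein-coding genes and 23.9% of all 27025 genes with a promoter. The count of CG dinucleotides in the 300 bases had a median of 22 for the ribosomal protein genes, 21 for the mitochondrial ones and 15 for all protein-coding genes.
The sequences from 40 bases before to 20 bases after the start follow for 6 genes described above, with the run in capitals. They show it at the start (Rps18, Rpl13a and Rpl22l1), somewhat before it in both members of a parent and copy pair (Rpl39 and Rpl39l), and absent from the window in Rplp0.
Rps18, chr17:33955646-33955705, minus strand: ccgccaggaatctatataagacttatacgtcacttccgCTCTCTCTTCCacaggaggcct
Rpl13a, chr7:45128726-45128785, minus strand: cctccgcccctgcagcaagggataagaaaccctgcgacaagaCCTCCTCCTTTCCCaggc
Rpl22l1, chr3:28805468-28805527, plus strand: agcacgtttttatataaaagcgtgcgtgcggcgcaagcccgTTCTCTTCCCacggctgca
Rpl39, chrX:37085203-37085262, minus strand: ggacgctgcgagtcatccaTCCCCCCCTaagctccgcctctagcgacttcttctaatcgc
Rpl39l, chr16:10170188-10170247, plus strand: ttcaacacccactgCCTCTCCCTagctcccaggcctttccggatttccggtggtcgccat
Rplp0, chr5:115559427-115559486, plus strand: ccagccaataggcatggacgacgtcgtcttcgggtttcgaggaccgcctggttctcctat

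The run starts 2 bases before the annotated start in Rps18 and 21 and 26 bases before it in Rpl39 and Rpl39l. A run of these letters is a description of the window and was not tied to any value of the arrays.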

How the data were processed

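The authors deposited 1 scanner file per array with linear spot intensity values. Agilent Feature Extraction 10.7.3.1 produced them and mapped the probes to mm9, per the file headers (version 10.7 per the submitters' processing notes). The deposited files also hold other columns, with marks for spots well above background, saturated or outlying. The authors' deposited value table holds log2 values and was used as an alternative input only. No source used here names the software behind it.

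Control spots and outlier-marked spots (86 to 142 gene spots per array) were dropped, spots of 1 probe averaged, and log2 of the processed signal taken minus each array's 75th percentile. No ribosomal protein value was lost. Probes that passed the background mark on 3 or more of the 6 arrays were fitted singly with limma 3.58.1 in R 4.3.3 (lmFit, eBayes, two-sided, Benjamini-Hochberg over 28913 probes, threshold 0.05). Tables were handled in Python 3.11.15. Differences are Prss54KO minus WT, SE is limma's, and 1.00 on this scale is 2-fold. In simulated data with 100 changed probes of each size, the fit recovered 97% of changes of 1 on the log2 scale and 100% of changes of 2. It made 5 false calls. The simulation did not copy the variances of the arrays, so these shares check the code and do not give the power of the comparison. On the arrays, Prss54 itself, at -1.56, missed the threshold (limma's adjusted p = 0.116). The labels name separate mice but no litter, and each mouse gave 1 array. The p-values measure the spread between arrays, in which mouse, labelling and slide cannot be told apart. With 6 arrays their number limits the precision.

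Names were matched to RefSeq (GRCm38.p6) by accession for 120 probes and by symbol for 23. That build differs from mm9, so only names, chromosomes and its own promoters were taken from it, and no exon or untranslated region is assigned to a probe. Probes named singly are all tested probes of the duplicated genes, their parents and the reference genes, the 8 per direction with the smallest p, those of the 4 genes whose probes disagree most, and in other lists the 2 with the smallest p. Members and lists were chosen with earlier results of these data known. The replicate numbers did not pair the samples: the deviations of same-numbered arrays correlated at -0.04, 0.02 and -0.15. The alternatives were quantile and median scaling, normexp background correction (offset 50), other filters, 1 value per gene, the authors' table, slide and replicate blocks, array weights, an intensity trend with robust variance, and leaving out each array. Results that need items withheld here are not reported.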

Additional observations from a re-analysis of the deposited data

How the results depend on the processing

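Under all 20 alternatives 0 ribosomal protein probes had an adjusted p under 0.05 with limma, and over all probes the count was 0 to 2. The count at an unadjusted p under 0.05 was 0 of 137 in the fit reported, against 3.21% of all probes. It was 1 with quantile scaling, with normexp and in the authors' table, against 3.33%, 2.96% and 3.32% of all probes (a dim probe of Rps24 each time). Slide as a fixed block gave 2 (Rps21 and Rpl3l), against 4.38%. The replicate block gave 1 (Rpl7a), against 3.92%, and array weights gave 1 (Rps24), against 5.24%. Except with normexp, the Rps24 probe was A_52_P537084, which passed the filter on dim probes only through WT. Slide 2 alone leaves 1 WT array, so its count is not given. Leaving out 1 array gave 0 to 5: 5 without WT replicate 3, 1 without WT replicate 1, WT replicate 2 or Prss54KO replicate 3, and 0 otherwise. The count over all probes moved too, between 579 without WT replicate 1 and 1796 without WT replicate 3. The cause was not tested. The median difference of the ribosomal protein probes ran from -0.007 with median scaling to 0.020 without WT replicate 3 and was below 0 in 3 alternatives, all within the spread of array medians. Of 990 values of the named probes under alternatives, 122 changed sign, 12 had an unadjusted p under 0.05 and 0 an adjusted one. With the replicate number as a block the median was 0.012, and only Prss54KO replicate 2 correlated best with its own number. Dim probes limit the set: of 19 tested probes under 1000 units in WT, 7 had an interval inside 1.2-fold.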
